A study of Mus musculus with 21 samples.

Results

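The regions described here are 704 autosomal 10000 bp windows of the mouse genome in which a sperm bisulfite library covered an unusual number of CpGs deeply. A CpG, a cytosine followed by a guanine, was called a high-read CpG where at least 20 reads covered it. A window was taken where it held at least 5 high-read CpGs. This held for 704 of 237961 autosomal windows with a listed CpG (0.296%). Another 8 windows in 4 stretches had been set aside. Their deepest CpGs had 489 to 1958634 reads, and those of the chosen windows 20 to 6490. The windows were chosen by read totals, so the totals and the number of deep CpGs are given as a description only. The level of methylation, the spacing of the CpGs, the distant CpGs of the same windows and the position relative to genes were not used to choose them. Windows are named by the coordinates of the deposited table, on mm9.

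The series holds 21 samples of chromatin, RNA and bisulfite libraries from mouse sperm and round spermatids, and 1 of them was used here. It is a bisulfite library of sperm from C57BL/6 mice. The cells were collected by swim-up, their chromatin was cut to single nucleosomes with micrococcal nuclease (MNase), and this DNA was bisulfite converted. The other 20 samples were not analysed here, and with 1 library there is no replicate and no test of any difference below.

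In sperm most histones are replaced by protamines, so nuclease digestion of sperm chromatin recovers the DNA of the nucleosomes that remain. Read depth in such a library follows how much of a stretch is recovered, as well as how readily its fragments are copied and placed, and how many copies of the sequence the genome holds. CpG-dense stretches, called CpG islands, lie at many promoters and are usually free of methylation in mammalian germ cells, while most other CpGs of the genome are methylated. Bisulfite treatment turns unmethylated cytosine into uracil, so the methylation level of a CpG is the share of its reads that still show cytosine.

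The deep CpGs lay in short patches, and some of those patches fell within promoters of known genes. Gene starts were placed on the coordinates of the deposited table by matching the distances between the CpGs of each RefSeq promoter with the distances between listed CpGs. Of 13800 autosomal promoter sequences with at least 10 CpGs, 11821 (85.7%) were placed once. The 250 bases before the start are printed below for 5 promoters, from RefSeq on GRCm38.p6, on the strand of the gene and from 5′ to 3′, with each high-read CpG in capitals. The first 4 were taken because their windows were lowly methylated and had the most high-read CpGs in these 250 bases, among genes with no other placed start within 1000 bp. They show where the deep CpGs lay among the other CpGs of these promoters. Hjurp was taken by the same count from the windows with higher methylation. Their genes encode the deubiquitinase Usp46, the chromatin remodelling subunit Smarcc2, the CREB coactivator Crtc3, the serotonin receptor Htr7 and the centromeric histone chaperone Hjurp. The stretches are chr5:74068412-74068661 for Usp46 (minus strand), chr10:128458986-128459235 for Smarcc2 (plus strand), chr7:80688878-80689127 for Crtc3 (minus strand), chr19:36057361-36057610 for Htr7 (minus strand) and chr1:88277580-88277829 for Hjurp (minus strand).
Usp46: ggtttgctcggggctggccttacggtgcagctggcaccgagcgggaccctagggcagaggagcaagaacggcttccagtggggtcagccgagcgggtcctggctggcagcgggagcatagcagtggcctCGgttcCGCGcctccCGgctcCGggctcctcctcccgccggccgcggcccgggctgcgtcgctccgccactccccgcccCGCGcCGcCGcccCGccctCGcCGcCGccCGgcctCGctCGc
Smarcc2: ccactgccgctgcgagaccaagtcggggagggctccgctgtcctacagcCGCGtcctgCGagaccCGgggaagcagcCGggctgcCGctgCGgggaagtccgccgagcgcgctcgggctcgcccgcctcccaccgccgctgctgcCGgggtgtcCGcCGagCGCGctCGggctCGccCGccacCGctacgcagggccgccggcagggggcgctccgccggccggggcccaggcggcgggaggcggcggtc
Crtc3: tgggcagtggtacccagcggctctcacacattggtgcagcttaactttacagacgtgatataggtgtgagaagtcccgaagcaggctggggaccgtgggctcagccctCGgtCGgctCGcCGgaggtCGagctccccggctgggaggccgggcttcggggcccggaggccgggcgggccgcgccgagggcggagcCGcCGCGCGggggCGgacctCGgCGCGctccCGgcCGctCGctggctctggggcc
Htr7: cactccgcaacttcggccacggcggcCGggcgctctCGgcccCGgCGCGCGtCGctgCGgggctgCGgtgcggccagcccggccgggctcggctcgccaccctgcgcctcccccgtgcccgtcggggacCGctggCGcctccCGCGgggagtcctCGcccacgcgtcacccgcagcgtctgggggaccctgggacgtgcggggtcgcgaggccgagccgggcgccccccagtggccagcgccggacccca
Hjurp: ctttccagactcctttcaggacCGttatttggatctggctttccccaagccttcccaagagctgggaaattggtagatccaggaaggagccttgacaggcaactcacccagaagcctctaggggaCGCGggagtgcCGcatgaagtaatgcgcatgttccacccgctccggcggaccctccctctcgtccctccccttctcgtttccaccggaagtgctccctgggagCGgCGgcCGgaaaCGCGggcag

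In Usp46, 16 of the 33 CpGs were high-read, in groups of 5 and 11 with 58 bp between them. The 9 CpGs in that gap had 1 to 19 reads, and the 16 deep ones had 20 to 37. In Smarcc2, 16 of 40 CpGs were high-read, in groups of 7 and 9 that were 55 bp apart, and the CpGs between them had 1 to 16 reads. In Crtc3, 16 of 30 CpGs were high-read, in groups of 5 and 11 that were 68 bp apart, with 4 to 19 reads at the 10 CpGs of the gap. In Htr7, 14 of 41 CpGs were high-read, in groups of 9 and 5 that were 64 bp apart, with 9 to 16 reads between them. The promoters were picked by their high-read CpGs, and CpGs in a gap have fewer than 20 reads by definition, so the grouping is a description. Reads are summed over the capital CpGs, so a read can count at several of them. Of these, 11 of 456 were methylated in Usp46 (2.41%) and 7 of 408 in Smarcc2 (1.72%). In Crtc3 2 of 367 were methylated (0.545%), and in Htr7 5 of 309 (1.62%). In Hjurp, 9 of 16 CpGs were high-read and 7 of their 275 reads were methylated (2.55%), although the high-read CpGs of its whole window had a level of 30.9%.

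The 704 windows held 8034 high-read CpGs, 65.2% of the 12319 on the autosomes, and 121734 other listed CpGs. A window had a median of 8 high-read CpGs, with quartiles of 6 and 13 and a highest number of 112. There were 411 windows with 5 to 9 high-read CpGs, 224 with 10 to 19 and 69 with 20 or more. The deepest CpG of a window had a median of 29 reads, with quartiles of 24 and 40, and reached 6490. Most windows were therefore only just above the read minimum, while 62 had a CpG with 100 or more reads.

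Most high-read CpGs had a low level. Of the 8034, 5830 (72.6%) had a level under 20%, 1307 (16.3%) had a level of 20% to 80% and 897 (11.2%) had a level over 80%. No methylated read was seen at 3520 of them (43.8%). Pooled over all reads, the level was 33.2% at the high-read CpGs and 22.6% at the other CpGs of the windows. As a mean over CpGs, the levels were 21.0% at the high-read and 30.2% at the other CpGs, so the order depended on the measure. Among high-read CpGs outside the windows, 57.3% had a level under 20%, and among CpGs of 10 to 19 reads outside the windows the share was 43.9%. Pooled over its high-read CpGs, a window had a median level of 2.20%, with quartiles of 0.931% and 12.1%. This pooled level was under 5% in 483 windows and 0% in 69.

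By the pooled level of their high-read CpGs, 554 windows (78.7%) were low (under 20%), 124 (17.6%) were intermediate (20% to 80%) and 26 (3.69%) were high (over 80%). The exact binomial 95% intervals of these shares are 75.5% to 81.7%, 14.9% to 20.6% and 2.43% to 5.37%. They cover counting error only, as do all intervals below, since several reads can stem from the same molecule. Next to the threshold, 79 of 114 windows with exactly 5 high-read CpGs (69.3%) were low, and of 188 windows with exactly 4, which were left out, 139 were low (73.9%). The median level was 3.02% in windows with exactly 5 and 3.45% in windows with exactly 4, and the deepest CpG had a median of 24 reads in both.

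Density and level went together. Density is counted here as the listed CpGs within 100 bp on either side of a CpG, itself included. The high-read CpGs of the windows had a median density of 26, and 5284 of them (65.8%) had 15 or more, against 34.0% of the high-read CpGs and 5.12% of all listed CpGs outside the windows. A need for several deep CpGs in a window itself favours dense stretches, and the median density of a window was 23 with exactly 5 high-read CpGs, 30 with 10 or more, and 17.25 with exactly 4. These 5284 dense CpGs had a mean level of 3.22%, and 97.8% of them were under 20%. At a density of 1 or 2, the 779 high-read CpGs had a mean level of 63.7%, and at 3 to 5 the 953 high-read CpGs had a mean level of 62.9%. Those at 6 to 9 had a mean level of 51.4% and those at 10 to 14 one of 27.7%. The mean level of the high-read CpGs was thus lower with each step in density.

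Listed CpGs outside the windows also had lower levels at higher density, and at low density they were more highly methylated than deep CpGs, inside the windows or outside. At a density of 1 or 2 the pooled level was 65.1% at high-read CpGs of the windows, 53.7% at high-read CpGs outside and 86.8% at all listed CpGs outside. The mean levels there were 63.7%, 69.7% and 87.1%, so the order of the first 2 differed by measure. In the denser classes both measures were higher at high-read CpGs of the windows than at those outside. At 3 to 5 the pooled level was 57.3% at high-read CpGs of the windows, 46.9% at those outside and 84.4% at all listed CpGs outside. At 6 to 9 it was 51.9% at high-read CpGs of the windows, 33.6% at those outside and 70.4% at all listed CpGs outside. A lower level of sparse deep CpGs was thus not particular to these windows. At 10 to 14 the values were 27.2% at high-read CpGs of the windows, 16.6% at those outside and 29.8% at all listed CpGs outside. At 15 or more they were 6.37% at high-read CpGs of the windows, 2.19% at those outside and 3.32% at all listed CpGs outside. The value of the windows came largely from the very deep ones. Where the deepest CpG had fewer than 100 reads, the 5127 dense high-read CpGs had a pooled level of 2.74%, and in windows with a deeper CpG the other 157 had one of 18.1%.

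**Figure D1:**
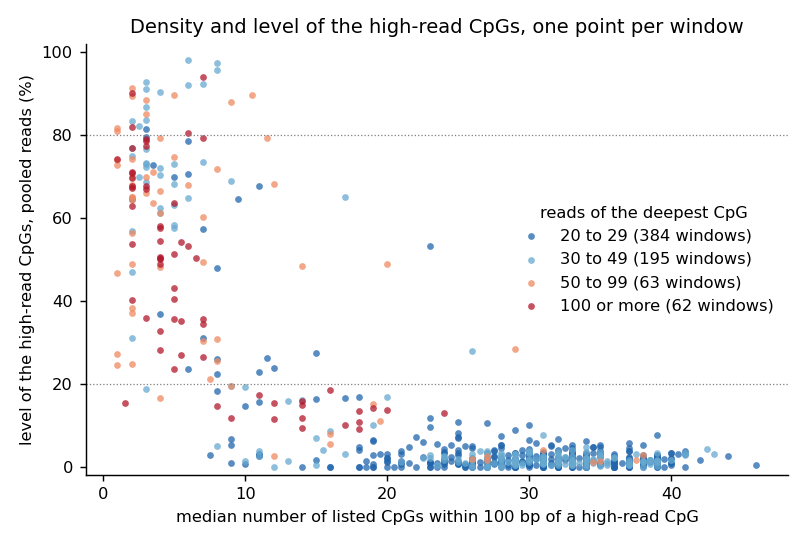
Each point is 1 of the 704 windows, placed by the median density of its high-read CpGs (listed CpGs within 100 bp on either side) and their pooled methylation level in percent, and coloured by the reads of its deepest CpG. Dotted lines mark 20% and 80%. Of the 555 windows at a density of 10 or more, 541 lie under 20%, and of the 149 sparser windows 13 do.

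Nearly all CpG-dense windows were lowly methylated, and the sparse ones were mostly intermediate. Of 555 windows with a median density of 10 or more, 541 (97.5%) were low, and of 149 sparser windows 13 (8.72%) were low. Low windows had a median density of 30.5 and a median of 203.5 listed CpGs. Intermediate windows had a median density of 4 and 65.5 listed CpGs, and high windows had a density of 3 and 40.5 listed CpGs. The levels of the 149 sparser windows were widely spread, with quartiles of 38.2% and 74.2%, and 111 of them were intermediate.

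Depth separated the windows in the same way. Of 384 windows whose deepest CpG had 20 to 29 reads, 94.5% were low, and of 195 with 30 to 49 reads 81.0% were low. Low windows were 15 of 63 (23.8%) with 50 to 99 reads and 18 of 62 with 100 or more. Median densities in these 4 classes were 30, 29, 4 and 5. Of those with 50 to 99 reads 39 were intermediate and 9 high, and of those with 100 or more 40 were intermediate and 4 high. The windows just above the read minimum were thus mostly dense and low, and the deeper windows were mostly sparse and intermediate.

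In low windows the high-read CpGs sat close together. Their first and last high-read CpG were a median of 57 bp apart, and in 445 of 554 low windows (80.3%) they were at most 150 bp apart, about the length of DNA on a single nucleosome. In the 150 windows that were not low, 20 (13.3%) had so short a span. The median span was 4167 bp in intermediate windows and 4787 bp in high ones. A patch was defined as high-read CpGs with gaps of at most 150 bp. Low windows had a median of 1 patch, and 461 of 554 had exactly 1, while intermediate windows had a median of 4 and high windows of 3.

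The largest patch of a low window was either about 20 to 60 bp or about 100 to 150 bp long. It spanned 20 to 60 bp in 315 low windows (56.9%) and 100 to 150 bp in 161 (29.1%), while 27 lay in between at 61 to 99 bp. A further 28 were under 20 bp and 23 were over 150 bp. The shorter patches held a median of 7 high-read CpGs and had a median level of 1.28%, and the longer held 14 and had 1.86%. Their median densities were 30 and 31.5, so both kinds lay in similarly CpG-dense sequence. Among the intermediate windows, 43 of 124 had a largest patch of 20 to 60 bp, 21 had one of 100 to 150 bp and 38 had one of over 150 bp.

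The longer patches were shallow in the middle. Around the middle of the 161 patches of 100 to 150 bp, the mean was 11.0 reads per listed CpG within 10 bp, 27.3 reads at 50 to 60 bp and 4.81 reads at 130 to 140 bp. Window by window, the CpGs within 20 bp of the middle had fewer reads than those at 30 to 60 bp in 155 of 159 windows with CpGs in both, and the medians were 6.88 and 24.3 reads. The ends of a patch are high-read by definition, so the comparison describes the shape of patches already chosen for deep ends. Around the 315 patches of 20 to 60 bp, the mean was 29.2 reads within 10 bp of the middle, 5.05 reads at 50 to 60 bp, 8.78 reads at 90 to 100 bp and 4.90 reads at 130 to 140 bp. Here the CpGs at 80 to 110 bp had more reads than those at 40 to 70 bp in 237 of 305 windows, with medians of 8.70 and 5.13 reads. The fewer reads just beside a short patch are likewise set by its definition, and all of these depths are a description.

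**Figure D2:**
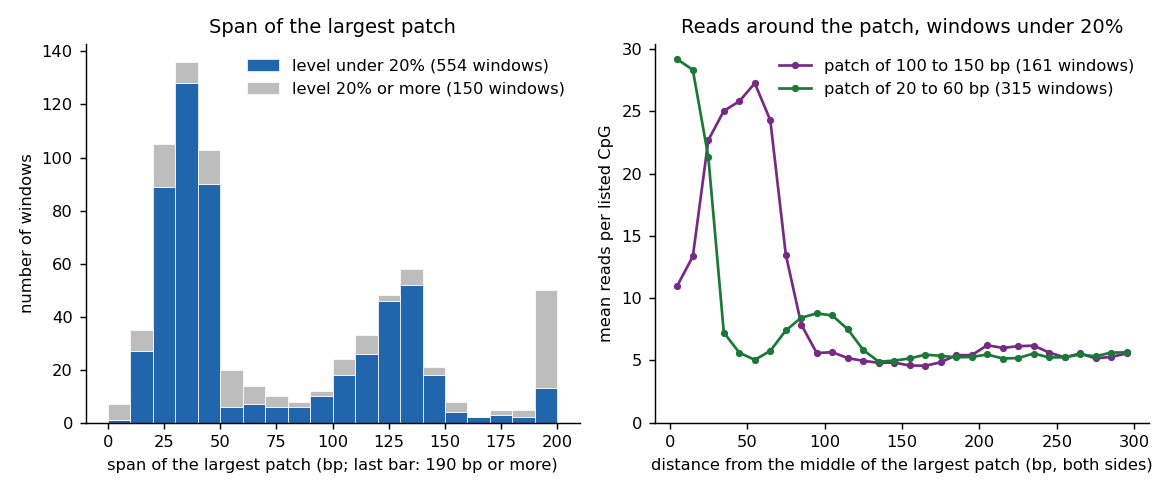
Left, the number of windows by the span of their largest patch in bins of 10 bp, with low windows in blue and the rest stacked in grey. Right, mean reads per listed CpG by distance from the middle of the largest patch, both sides together, for low windows with a patch of 100 to 150 bp (purple) or 20 to 60 bp (green). The longer patches have 11.0 reads in the middle and 27.3 at 50 to 60 bp, and the shorter have 29.2 in the middle and a lesser maximum of 8.78 at 90 to 100 bp.

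Close to the high-read CpGs of low windows, the other CpGs were also lowly methylated. They have fewer reads by definition, so their depth is given as a description. In low windows they had a mean of 10.7 reads and a pooled level of 2.51% at 1 to 25 bp from the nearest high-read CpG. The mean was 6.09 reads at 26 to 50 bp, 7.00 at 51 to 75 bp and 7.51 at 76 to 100 bp. Between 200 and 300 bp there were 5.19 reads and a level of 3.04%, and between 300 and 500 bp 5.03 reads and 3.87%. The level was 8.64% at 501 to 1000 bp, 33.5% at 1001 to 2000 bp and 63.8% beyond that, where the mean was 3.42 reads. The level thus was at most 3.87% up to 500 bp and stayed under 20% up to 1000 bp.

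In intermediate windows the other CpGs had a pooled level of 45.9% at 1 to 25 bp and 73.5% beyond 2000 bp. In high windows the same distances had levels of 87.6% and 84.1%. Depth was again highest nearest to the high-read CpGs, with means of 12.1 reads in both at 1 to 25 bp, against 3.58 reads in intermediate and 3.51 reads in high windows beyond 2000 bp.

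**Figure D3:**
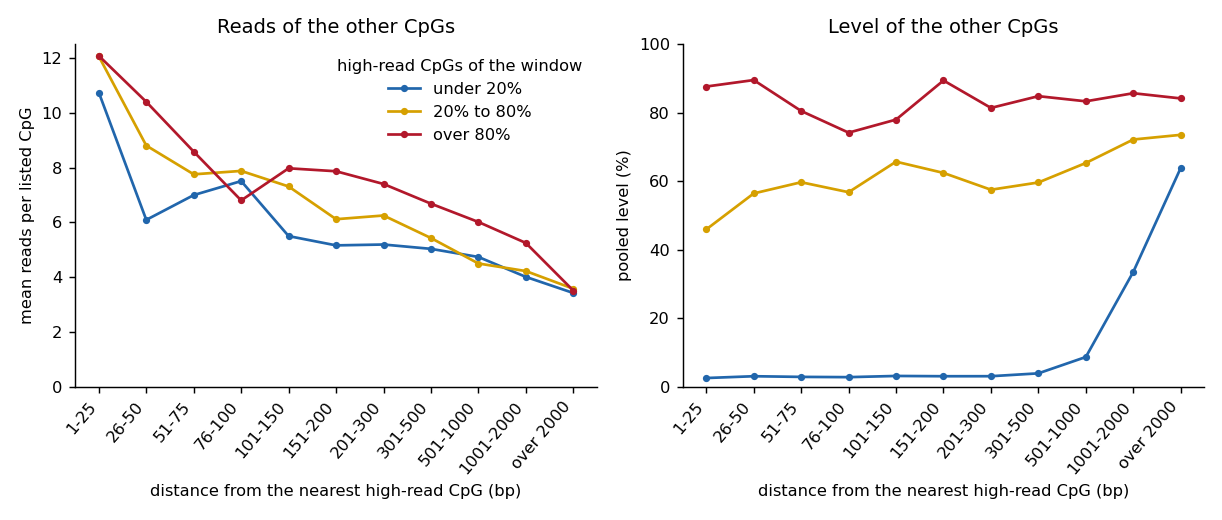
Mean reads per listed CpG (left) and pooled methylation level in percent (right) of the CpGs under 20 reads, by distance in bp from the nearest high-read CpG of the window, for low (blue), intermediate (yellow) and high (red) windows. In low windows the level stays between 2.51% and 3.87% up to 500 bp and is 63.8% in the last class.

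Over a whole window, the other CpGs were more methylated than the high-read ones in 649 of 704 windows and less methylated in 55. They had a median level of 23.5%, with quartiles of 14.6% and 44.2%, and a median of 4.76 reads per CpG. In low windows the CpGs farther than 300 bp from any high-read CpG had a median level of 37.7%. It was over 50% in 181 low windows, over 80% in 22 and under 20% in 120, so a patch could lie in a short unmethylated stretch or in a window that was unmethylated nearly throughout. In intermediate windows these distant CpGs had a median level of 79.4%, and in high windows 85.2%.

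Compared with windows that had as many other CpGs, the other CpGs of the chosen windows were less methylated. Their reads are given beside the levels as a description, since read depth chose the windows. With 100 or more but under 200 other CpGs, the median level was 23.5% in 290 chosen windows and 81.9% in 36788 windows outside, and the median of the mean reads was 4.63 in the chosen windows and 3.37 outside. With 200 or more, the levels were 14.9% in 252 chosen windows and 21.2% in 3296 outside, and the reads were 4.84 in the chosen windows and 4.33 outside. With 50 to 99, the levels were 68.5% in 76 chosen windows and 88.7% in 83737 outside, with 4.50 reads in the chosen windows and 3.11 outside. With 20 to 49, they were 75.4% in 65 chosen windows and 88.2% in 95942 outside, with 6.21 reads in the chosen windows and 2.75 outside. In the first of these classes the chosen windows lay mostly below the lower quartile of the others, 54.0%, since their own upper quartile was 32.5%.

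**Figure D4:**
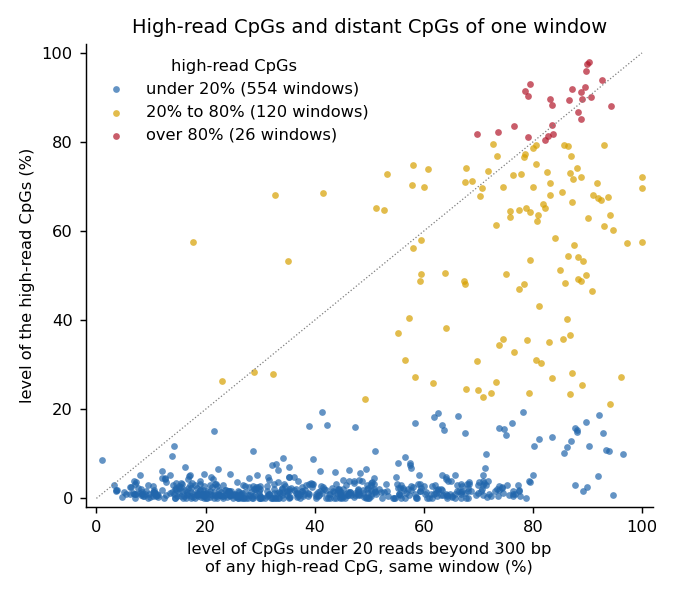
Each point is 1 window, with the pooled level of its CpGs farther than 300 bp from any high-read CpG on the x axis and that of its high-read CpGs on the y axis, both in percent. The 4 windows without such distant CpGs are not drawn, and the dotted line marks equal levels. Low windows (blue) run along the bottom over almost the full width, with a median of 37.7% at their distant CpGs.

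The windows held placed gene starts far more often than autosomal windows as a whole. A start of a placed promoter fell in 336 of 704 windows (47.7%), against 3.76% of all autosomal windows. Among low windows 328 of 554 (59.2%) held a start, and among the other 150 windows 8 did (5.33%). Promoters could be placed only where nearly all their CpGs were listed, which favours well covered CpG-dense promoters. The need for several deep CpGs favours such stretches too. The chosen windows held a median of 188 listed CpGs, against chromosome means of 54.5 to 77.7 per window. The share was not computed for windows with as many listed CpGs, so the counts do not separate gene starts from CpG number. Seen from the promoters, 3.76% of the 8943 windows with a start were chosen, and 0.161% of the 229018 windows without one.

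The middle of the largest patch lay within 1000 bp of a placed start in 314 windows, 310 of them low. It was downstream of the start in 226 and upstream in 88, at a median of 126 bp downstream with quartiles of -11.3 and 297 bp. In 196 windows it lay 0 to 500 bp downstream. Around the 456 starts inside the windows, CpGs had a mean of 8.10 reads and a level of 2.56% within 250 bp downstream, and 9.66% of them were high-read. Around the 11350 starts outside, they had 5.30 reads, a level of 2.63% and a high-read share of 0.157%. At 1 to 250 bp upstream the means were 6.69 reads around starts in the windows and 4.64 around starts outside. The levels there were 2.87% in the windows and 3.53% outside. At 501 to 1000 bp upstream the levels were 7.88% around starts in the windows and 14.2% around starts outside. Reads chose the windows, so their difference is no finding, while the level just downstream of the start was nearly equal.

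**Figure D5:**
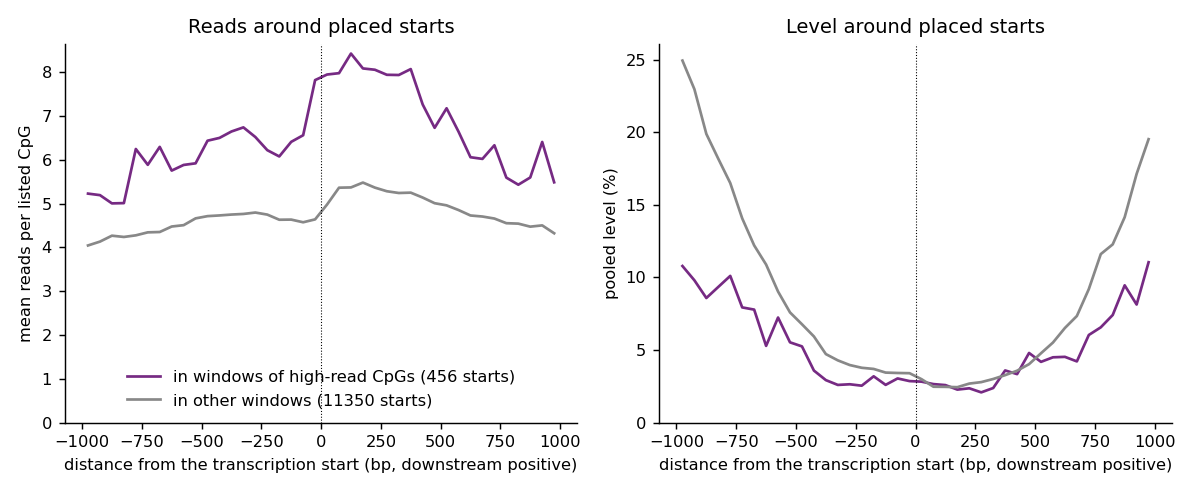
Mean reads per listed CpG (left) and pooled methylation level in percent (right) in bins of 50 bp around placed transcription starts, for 456 starts inside the windows (purple) and 11350 starts outside (grey). The dotted line marks the start. Reads are higher just downstream of the start than just upstream for both, and the levels stay under 4% from 300 bp upstream to 349 bp downstream in both.

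The genes at the patches have many functions. The ones given here with their values were chosen after these were seen, from among those with most high-read CpGs, and where several starts lie close together the nearest placed one names the window. Crtc3, described above, had 33 high-read CpGs in its window with 9 of 808 reads methylated (1.11%), and its largest patch spanned 147 bp. Prdm16, a zinc-finger transcription regulator, had 24 high-read CpGs in 138 bp with a level of 2.84%, centred 293.5 bp after the start. Hdac7, a histone deacetylase, had 21 in 130 bp with 2.21%. Rab21, an endosomal GTPase, had 20 in 128 bp with 2.10%. Rxra, a nuclear receptor that pairs with retinoic acid receptors, had 19 in 120 bp with 1.53%. Gna12, a G protein subunit, had 18 in 134 bp with 0.712%. In these windows the deepest CpG had 35 to 50 reads, so none stood far above the read minimum, and the level was at most 2.84%. Windows not given here could exceed this. That of LOC115490388, with 25 high-read CpGs, had a level of 19.4% and a deepest CpG of 59 reads. The Rhou window, with 24 high-read CpGs, had a level of 3.66%.

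Windows with placed starts and higher levels were few. The largest patch lay within 1000 bp of a start in 4 windows whose pooled level was not low. The Hjurp window had 63 high-read CpGs and a level of 30.9% (531 of 1719 reads, Wilson 95% interval 28.8% to 33.1%), but the patch at its start, with 32 of these CpGs, had a level of 3.61%. The Tmem267 window, named for a transmembrane protein gene, had 53 with 65.2% (interval 62.8% to 67.5%). The window of Clic4, a chloride intracellular channel gene, had 5 with 27.9% (interval 20.9% to 36.2%), and that of Vmn2r29, a vomeronasal receptor gene, had 5 with 53.3% (interval 44.4% to 62.0%). The other CpGs, those under 20 reads, had a mean of 10.8 reads in the Hjurp window and 6.46 in the Tmem267 window, against a median of 4.76 over all 704 windows.

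Among windows with at least 10 high-read CpGs, 8 had no methylated read on any of them, and the 6 with most reads are given here. The window of Smad3, the transforming growth factor beta signal transducer, had 0 of 376 reads methylated, summed over 15 CpGs. The Wilson 95% interval ends at 1.01%, which is too low a bound where a read counts at several CpGs. The Smad3 patch spanned 131 bp, centred 126 bp after the start. The others were the windows of Arhgef11, a guanine nucleotide exchange factor, with 14 CpGs, of Rbm24, an RNA-binding protein, with 11, and of Rnf169, a ubiquitin ligase of DNA break repair, with 10, and chr8:73900001-73910000 with 12 and chr1:9780001-9790000 with 10, which had no placed start within 10000 bp. Distant CpGs of these windows had levels of 23.2% to 68.0%.

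The 6 windows with the highest level in the same class were sparse in CpGs. They were chr1:90160001-90170000 with 40 high-read CpGs and 91.2%, chr17:13420001-13430000 with 11 and 90.4%, chr8:19970001-19980000 with 13 and 90.1%, its neighbour chr8:19980001-19990000 with 12 and 89.7%, chr13:120280001-120290000 with 46 and 88.1%, and chr1:85280001-85290000 with 16 and 82.2%. Their deepest CpGs had 32 to 117 reads and their median densities were 2 to 9. The high-read CpGs of each were spread over at least 4056 bp, unlike the patches of low windows.

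The 6 windows with the most high-read CpGs were mixtures of CpGs with low and high levels. This did not hold for windows with many high-read CpGs in general, since of 293 with 10 or more 224 were low. The largest number was 112 at chr11:3090001-3100000 with a level of 79.2%, followed by 100 at chr11:3050001-3060000 with 57.5% and 85 at chr2:27350001-27360000 with 35.6%. The next 3 also lay on chromosome 11, with 82, 74 and 68 high-read CpGs and levels of 78.7%, 67.6% and 67.7%. Within each of these 6 windows the lowest level of a single high-read CpG was at most 2.55% and the highest at least 95.1%. Over all windows, 62 held high-read CpGs both under 20% and over 80%, of which 59 were intermediate. Of 263 patches with at least 3 high-read CpGs in intermediate windows, 14 were low, 200 intermediate and 49 high. Smaller patches were not counted. The level of a patch is pooled, so an intermediate patch can still mix CpGs of unlike level. In chr14:87790001-87800000, 1 patch of 5 CpGs at 35.7% had CpGs from 0% to 70.2%. In low windows 589 of 591 patches with at least 3 high-read CpGs were low, and in high windows 26 of 29 were high.

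The 6 windows with the highest single totals had methylated surroundings, with distant CpGs at 83.7% to 88.8%. The deepest CpG had 6490 reads in chr12:68160001-68170000, where 15 high-read CpGs had a level of 51.2%, and 3378 reads in chr12:75900001-75910000, where 12 had 48.8%. It had 1975 reads in chr18:85860001-85870000, with 6 CpGs at 11.6%, and 1448 reads in chr16:11140001-11150000, with 21 at 12.8%. In chr8:24200001-24210000 it had 1382 reads, with 8 CpGs at 54.2%, and in chr15:74910001-74920000 it had 1322 reads, with 11 at 81.9%.

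In 18 low windows the deepest CpG had 100 or more reads, a limit set here. Their level ran from 9.10% to 18.5% with a median of 13.6%, and none held a placed start. In the low windows with 20 to 29, 30 to 49 and 50 to 99 reads at the deepest CpG, the median levels were 1.44%, 1.53% and 2.84%. The highest levels in these classes were 18.3%, 19.4% and 19.4%. At 50 to 99 reads, with 15 windows, the upper quartile was 9.45%. The deep low windows had a median density of 14, a median of 77 listed CpGs and distant CpGs at 84.6%, while all low windows together had 30.5, 203.5 and 37.7%. An example is chr16:57390001-57400000, where 27 high-read CpGs had a level of 13.7% and the distant CpGs 83.5%. Another is chr11:108870001-108880000 with 26 high-read CpGs, a deepest one of 420 reads and distant CpGs at 81.0%.

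The windows set aside before showed a similar pair of patterns. Those of chromosomes 2 and 9 had deepest CpGs of 7456 to 1958634 reads, above the 6490 reads of the deepest chosen window. Those of chromosome 17 had 489 and 1167 reads, within the range of the chosen windows. In the deep low windows above the level had a median of 13.6% at a density of 14, while chr17:39980001-39990000, a left-out window, had 546 high-read CpGs with a level of 11.1%, a median of 358.5 reads and a density of 23. In the other windows with deep sparse CpGs, 44 that were not low, the median level was 54.3% at a density of 4. The left-out windows of chromosomes 2 and 9 had levels of 45.8% to 55.3% at densities of 3 and 4.

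In 6 windows the other CpGs exceeded the high-read ones in level by most, and the median density of the high-read CpGs there was 3 to 12. At chr13:91470001-91480000, 8 high-read CpGs within 37 bp had a level of 5.07% and the 36 other CpGs 92.0%. At chr13:53600001-53610000, 10 within 36 bp had 2.46% and the other 87 had 83.9%. At chr18:68850001-68860000 the high-read CpGs had 14.7% and the others 93.1%, and at chr5:134310001-134320000 the high-read CpGs had 2.56% and the others 72.2%. At chr6:136380001-136390000 the high-read CpGs had 18.7% and the others 87.0%, and at chr16:91530001-91540000 the high-read CpGs had 11.8% and the others 79.6%. None of these 6 had a placed start within 10000 bp of its patch.

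The 6 windows with the largest difference the other way round were sparse, with a median density of at most 6. Sparse windows in general did not show this. In the 149 windows with a density under 10, the median level was 64.7% at the high-read CpGs and 76.9% at the others. At chr8:20020001-20030000 the 9 high-read CpGs had 74.8% and the other CpGs 29.3%, and at chr2:181020001-181030000 the high-read CpGs had 57.6% and the others 21.4%. At chr1:90100001-90110000 the high-read CpGs had 68.0% and the others 36.8%, and at chr4:3150001-3160000 the high-read CpGs had 68.6% and the others 44.9%. In the remaining 2, chr11:3020001-3030000 had 58.0% at its high-read CpGs and 43.4% at the others, and chr1:85310001-85320000 had 91.5% at its high-read CpGs and 77.6% at the others.

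The windows were scattered over all 19 autosomes. Each chromosome had 17 to 63 of them, from 1.60 per 1000 windows on chromosome 14 to 4.49 on chromosome 17. The share of low windows ran from 54.0% on chromosome 1 to 91.4% on chromosome 2. There were 614 windows with no neighbour among the chosen, 42 in pairs and 48 in 10 runs of at least 3 adjacent windows. The distance to the next window had a median of 1.62 Mb.

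The runs were mostly intermediate in level, while 84.2% of the windows outside runs of 3 or more were low. The longest was chr1:90100001-90210000, with 11 windows, 376 high-read CpGs and a level of 65.5%, and it includes the Hjurp window. The next was chr11:3020001-3100000, with 8 windows, 571 high-read CpGs and 69.8%. Further runs of chromosome 1 were chr1:87470001-87520000 with 76.9%, chr1:85240001-85290000 with 75.2% and chr1:85300001-85330000 with 83.5%. The run of 4 windows at chr17:3000001-3040000 had 27.7%, and the other runs of 3 windows had 65.7% at chr3:25430001-25460000, 61.2% at chr4:146790001-146820000, 63.9% at chr5:14950001-14980000 and 88.2% at chr8:19960001-19990000. Only 2 of these 48 windows were low, and in every run but that of chromosome 4 the windows had median densities of at most 8.

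The ends of chromosomes held a higher share of the windows than the autosomes as a whole. The first 1 Mb with listed CpGs held 32 of 1854 windows (1.73%), 25 of them not low, and the last 1 Mb held 13 of 1915 (0.679%), 7 of them not low. Over all autosomal windows the share was 0.296%. The first 1 Mb includes 8 windows of the run on chromosome 11 and 4 of the run on chromosome 17.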

How the data were processed

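DNA of single nucleosomes from C57BL/6 mouse sperm, cut with MNase and bisulfite converted, was sequenced as 1 library of a series of 21. For each listed CpG the deposited table gives 2 counts, the total and the methylated reads. Reads were aligned with Bowtie to mm9, per the submitters' processing notes. How strands, duplicates and multiply placed reads were handled, and the conversion rate, is not given in the sources used here. The table lists 15544856 CpGs with 60995624 reads, a median of 3 per CpG. Positions were used as the file gives them.

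Computed here (pandas 2.3.3, scipy 1.17.1 and matplotlib 3.10.9 under Python 3.11.15) were levels (methylated over total reads, pooled over CpGs), densities within 100 bp, patches (gaps of at most 150 bp) and Wilson or exact binomial 95% intervals. At 20 reads, a level is known only to within several percentage points or more. Each promoter (RefSeq, GRCm38.p6, 250 bases before to 50 after a start) with at least 10 CpGs was placed by a run of 5 CpG spacings. At least 80% of its CpGs had to be listed and at least 90% of the listed CpGs in its stretch had to be its own. No coordinates were converted, and 105 autosomal promoter placements fell on another chromosome and were not used. The scripts were tested on simulated data. Windows named are the 6 with most high-read CpGs, the 6 with the highest total, the 6 with the lowest and the 6 with the highest level, ties going to more reads, the 6 with the largest difference of the other CpGs in each direction, and every run of 3 or more. The windows, the lists and the comparisons were chosen with earlier results of these data known. Read minimum, window size, grid, state limits and the choice of other CpGs were varied. No genome or annotation of mm9 was used here.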

Additional observations from a re-analysis of the deposited data

Results flagged for a closer look

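The same rule applied to the sex chromosomes, which lie outside the autosomal description, found 20 windows on chromosome X, of 15539 with a listed CpG (0.129%). Of these 6 were low and 14 intermediate, with a median level of 34.9% and a median density of 2.5. It found 13 windows on chromosome Y, of 240 (5.42%), all of them intermediate, with a median level of 43.7% and a median density of 2. They are given because a signal appeared in data that the comparisons do not use, with no control samples beside it. The deepest CpG had 768 reads on X and 931 on Y.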

How the results depend on the processing

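Of 43 alternatives, 16 left their value within the interval of the reported one or, for the number of windows, within 1.5 times, and 27 moved it. The number of windows, 704, was 2375 with a minimum of 15 reads, 217 with 30 reads, 1150 with at least 3 high-read CpGs and 293 with at least 10. With a minimum of 15 reads the low share was 86.8% and the high share 2.36%. With a minimum of 30 reads the median level was 10.1%, the low share 58.1%, the high share 6.45% and the median density 9. With at least 3 high-read CpGs the median level was 2.74%, the low share 74.6% and the high share 6.17%. A low limit of 10% gave 73.4% low windows and a high limit of 90% gave 1.56% high ones. Density within 250 bp had a median of 53. The other CpGs had a median level of 46.4% and 3.88 reads beyond 300 bp, a level of 15.3% with at least 5 reads, 32.4% as a mean over CpGs, and 4 reads as a median over CpGs. Chosen after seeing the data, leaving out windows whose deepest CpG had 100 or more reads gave a median level of 1.90%, a low share of 83.5%, a density of 29 and a level of the other CpGs of 21.7%. Leaving out the runs gave a low share of 84.2% and a density of 29. The cause of these moves was not tested. Low windows stayed the largest class under each alternative in which shares were recomputed. No paired analysis was possible because there is 1 library, and no replicate could be left out. Depth limits single CpGs: most were covered only 20 to 29 times.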
